A study of Arabidopsis thaliana with 2 samples.

Results

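The genes described here are 7 Arabidopsis thaliana genes for chromosome proteins and their regulators, out of 8818 genes with a named probe. They are the linker histone gene HIS1-3 (AT2G18050), the genes 3xHMG-box1 (AT4G11080) and 3xHMG-box2 (AT4G23800) for high mobility group box proteins, the mitotic kinase genes Haspin (AT1G09450), AUR1 (AT4G32830) and AUR2 (AT2G25880), and PRL (AT4G02060), which encodes a subunit of the MCM helicase. They were found by locus in the probe annotation, and each had 1 probe. The set was put together, that is chosen by function and with the ratios of these same arrays known, from the only contrast in the study, so every value of the 7 genes is given as a description and none is tested.

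The study set siliques, the seed-bearing fruits, of the rge1-1 mutant against those of wild-type Col-0 at 12 DAF, from untreated plants grown at 22 °C with 16 h of light. The gene that gives the mutant its name, RGE1 (also ZHOUPI), encodes a transcription factor of the endosperm, and mutant embryos grow slowly. RNA of both genotypes was hybridised together on 2 replicate arrays, with rge1-1 in Cy3 and Col-0 in Cy5 on both, so the preference of a probe for either dye and the genotype cannot be told apart. The labels do not say that the replicates came from separate plants, so the spread between them may be technical. A silique holds embryo, endosperm, seed coat and fruit wall, and in such a mixture fewer cells of a type and less RNA per cell cannot be told apart. Ratios carry no level, so the tissue could not be checked against its marker genes.

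Linker histones sit on the DNA between nucleosomes and help to pack chromatin. HIS1-3 is the stress-inducible variant in Arabidopsis, raised by drought and by abscisic acid, a hormone that also governs seed maturation. The other genes work in dividing cells. MCM helicases open DNA for replication, and at mitosis Haspin and Aurora kinases phosphorylate histone H3 on condensing chromosomes, to which the plant 3xHMG-box proteins also bind. In a seed, cell division in the embryo and endosperm comes before storage filling and drying.

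Values are log2 ratios with the sign as deposited. The order of the ratio is not given in the sources used here. If it is Cy5 over Cy3, as the scanner software usually writes it, a negative value means more RNA in rge1-1. If it follows the sample titles, which name the mutant first, a negative value means less RNA in rge1-1. The deposited logarithm was read as base 10, which is also not stated, and folds depend on that reading. The median over all 21425 rows was 0.16 on replicate 1 and 0.02 on replicate 2. The SD across rows was 0.53 and 0.34.

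HIS1-3 was far from equal on both arrays, whereas the genes of dividing cells lay within 2.48-fold of equal on every array. Of these, 3xHMG-box1 and Haspin still ranked 139th and 149th of the 8818 named genes by absolute mean. The HIS1-3 ratio was -5.45 on replicate 1 and -3.89 on replicate 2, which is 43.7-fold and 14.8-fold from equal. Both arrays gave one sign, and the arrays differed in size by 1.56. The mean was -4.67 ± 1.10 (SD, n = 2), or 25.4-fold. Among the 8818 named genes its ratio was the 2nd lowest on replicate 1 and the 6th lowest on replicate 2, and its absolute mean ranked 4th. Among all 21425 rows, most of them unnamed, it was the 3rd lowest on replicate 1 and the 9th lowest on replicate 2. Read as log2 instead of log10, the same deposited values would be 2.65-fold from equal on average.

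**Figure D1:**
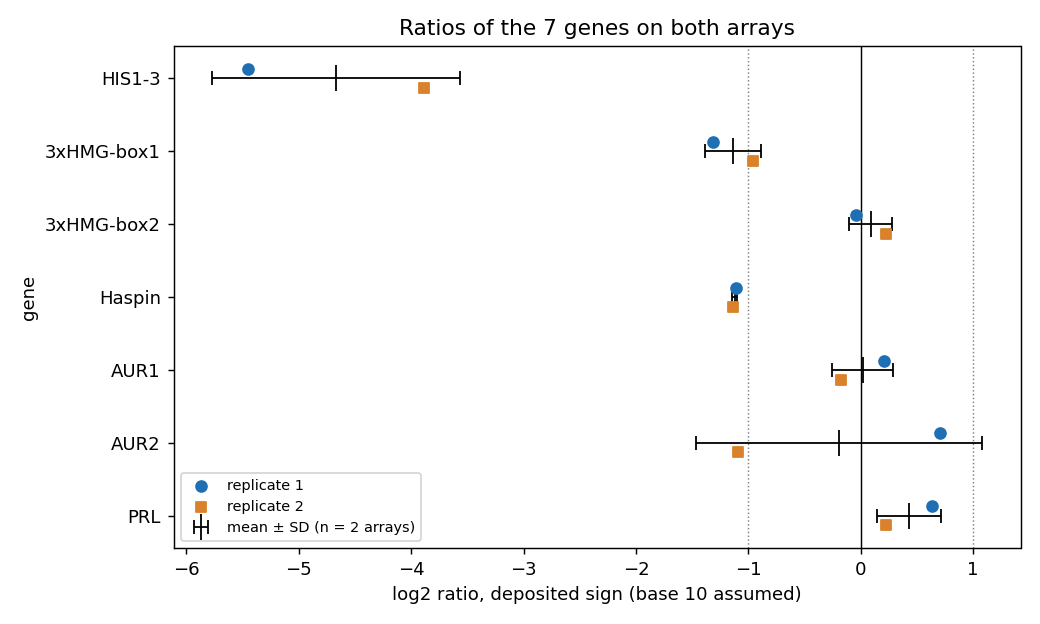
Log2 ratio (deposited sign, base 10 assumed) of each of the 7 genes, with circles for replicate 1, squares for replicate 2, and a bar with whiskers for the mean ± SD of the 2 arrays. Dotted lines mark 2-fold from equal. HIS1-3 stands apart at -5.45 and -3.89, Haspin and 3xHMG-box1 lie near -1 on both arrays, and the arrays disagree in sign for AUR2.

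Set against the other 6 genes, HIS1-3 was lower on each array. The other genes ranged from -1.31 to 0.71 on replicate 1, with a median of 0.08, and HIS1-3 lay 5.53 below that median. They ranged from -1.14 to 0.23 on replicate 2, with a median of -0.57, and HIS1-3 lay 3.32 below it. Over the means of the arrays the difference was -4.58. HIS1-3 did not overlap the range of the other genes on either array, and because the genes were chosen with these values known, no test was made of that gap.

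The linker histone genes did not share one ratio. AT1G06760 and AT2G30620, entered here as the linker histone genes HON1 and HON2, were the other members of the family with a named probe. AT1G06760 had ratios of 0.20 and 0.08 on replicates 1 and 2. AT2G30620 had ratios of -0.89 and 0.35, with opposite signs on the arrays. HIS1-3 lay 5.64 below AT1G06760 on replicate 1 and 3.97 below it on replicate 2. Against AT2G30620 the gap was 4.56 on replicate 1 and 4.24 on replicate 2. The large ratio was found for HIS1-3 and for neither of the other linker histone probes. Because HIS1-3 was chosen with its ratio known, and only 0.034% of all named genes had a larger absolute mean, nothing about the family is read from this.

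The named genes nearest to HIS1-3 along the chromosome did not share its ratio, and the genes between had no named probe. So large a ratio was rare, with 0.034% of all named genes further from equal by absolute mean. Nothing about the region is read from these neighbours. The nearest gene with a named probe on the side of lower coordinates was MSRA5, which encodes a methionine sulfoxide reductase, with 2 genes between. Its ratios were -0.34 and 0.26. On the other side the nearest was AT2G18100, with 6 genes between, at -0.37 and -0.09.

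Few named genes had a pair of ratios like that of HIS1-3. By the Euclidean distance between the pairs of log2 ratios on the 2 arrays, AT1G71940 was nearest of the 8817 other named genes, at a distance of 0.77, with ratios of -5.12 and -4.58. Next were AT1G18000, at a distance of 1.09 with ratios of -4.42 and -4.25, and AT2G32910, at a distance of 1.27 with ratios of -4.75 and -4.95. The likeness rests on 2 arrays only. These 3 genes differed less between the arrays than HIS1-3 did.

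The 2 genes for 3xHMG-box proteins had different ratios. These plant proteins, named for their repeated HMG boxes, are found on chromosomes during mitosis. 3xHMG-box1 had ratios of -1.31 on replicate 1 and -0.96 on replicate 2, with a mean of -1.13 ± 0.25 (SD, n = 2), or 2.20-fold. 3xHMG-box2 had ratios of -0.04 and 0.22, with a mean of 0.09 ± 0.19 (SD, n = 2). 3xHMG-box1 was lower than its paralogue by 1.27 on replicate 1 and by 1.18 on replicate 2. That gap was of similar size on both arrays, and it was not tested. The sign of 3xHMG-box2 is not settled, because its arrays disagree and centring each array on its median turns the mean from 0.09 to -0.0017. Probe sequences were not used here, so whether each probe separates the paralogues was not tested.

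Haspin, the kinase that marks histone H3 at mitotic centromeres, was the most even of the 7 genes between the arrays. Its ratio was -1.11 on replicate 1 and -1.14 on replicate 2, with a mean of -1.12 ± 0.02 (SD, n = 2), or 2.18-fold. As deposited the arrays differed by 0.03, and 92.9% of all rows differed by more. With each array centred on its median the Haspin ratios were further apart, at -1.27 on replicate 1 and -1.16 on replicate 2. The means of Haspin and 3xHMG-box1 were 0.01 apart and their order turned between the arrays, with 3xHMG-box1 lower on replicate 1 and Haspin lower on replicate 2. The named gene with ratios nearest to Haspin was AT2G07687, at a distance of 0.23, and 56 named genes lay within 0.5 of it. For 3xHMG-box1 the nearest was AT1G07520, at a distance of 0.02, with 54 named genes within 0.5. HIS1-3 had 0 named genes within that distance.

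**Figure D2:**
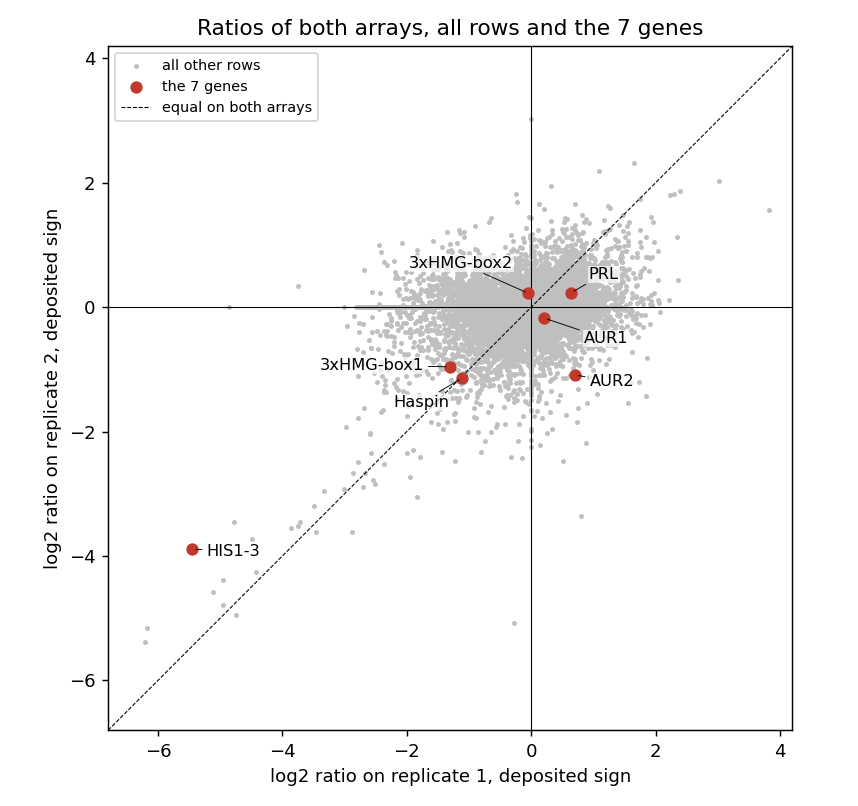
Log2 ratio on replicate 1 (horizontal axis) against replicate 2 (vertical axis), both with the deposited sign, for 21425 rows in grey and the 7 genes in red. The dashed line marks equal values. HIS1-3 lies among the few rows far out in the negative corner, Haspin lies on the dashed line at -1.11 and -1.14, and AUR2 lies off it at 0.71 and -1.09.

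The Aurora kinase genes gave no ratio of one sign. AUR1 and AUR2 encode closely related kinases of the spindle and of the forming cell plate. AUR1 had ratios of 0.21 and -0.18, with a mean of 0.02 ± 0.27 (SD, n = 2), and centring turned that mean to -0.07. AUR2 had ratios of 0.71 on replicate 1 and -1.09 on replicate 2, with a mean of -0.19 ± 1.27 (SD, n = 2). The AUR2 arrays were 1.80 apart, and 1.61% of all rows were further apart. AUR1 was lower than AUR2 by 0.50 on replicate 1 and higher by 0.91 on replicate 2, so the order of the paralogues turned between arrays. The mean of AUR2 is smaller than its SD, and either array alone gives a different sign. The named gene nearest to AUR2 was AT1G53050, at a distance of 0.05, with ratios of 0.68 and -1.13.

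Haspin and the Aurora kinases act on the same histone, and their ratios did not follow each other. Haspin was lower than AUR1 by 1.31 on replicate 1 and by 0.96 on replicate 2. Against AUR2 it was lower by 1.81 on replicate 1, and on replicate 2 the 2 genes were 0.05 apart.

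PRL was the only one of the 7 genes with a positive ratio on both arrays, as 41.9% of all named genes had. Its protein, also named MCM7, is a subunit of the helicase loaded on replication origins, and plants need it for embryo development. The ratio was 0.63 on replicate 1 and 0.23 on replicate 2, with a mean of 0.43 ± 0.29 (SD, n = 2), or 1.35-fold. It stayed positive with each array centred on its median, at 0.47 and 0.21. By absolute mean it ranked 1147th of the 8818 named genes.

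**Figure D3:**
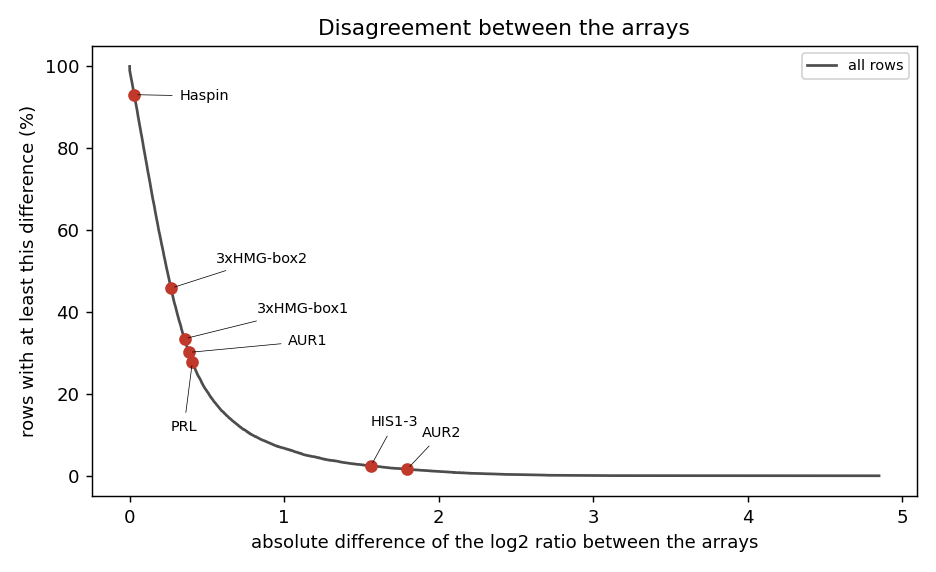
Share of all 21425 rows (percent) whose 2 arrays differ by at least the value on the horizontal axis (absolute difference of the log2 ratio). Red points mark the 7 genes: AUR2 at 1.80 and HIS1-3 at 1.56 lie in the thin tail, Haspin at 0.03 lies at the left end, and the other 4 lie between 0.27 and 0.41.

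The disagreement between arrays sets how the 7 ratios can be read. Over all rows the arrays differed by a median of 0.24, and 10% of rows differed by over 0.79. The differences of 3xHMG-box2 (0.27), 3xHMG-box1 (0.36), AUR1 (0.38) and PRL (0.41) were above that median and below that upper limit. HIS1-3, at 1.56, was in the tail, although its smaller ratio was still 14.8-fold from equal. In signs, 3 genes were negative on both arrays, 1 was positive on both and 3 had opposite signs. Among all named genes 17.0% were negative on both arrays, 41.9% were positive on both and 38.4% had opposite signs.

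Counted by size, 2 of the 7 genes, HIS1-3 and Haspin, were at least 2-fold from equal and negative on both arrays, and 0 were positive past that limit. 3xHMG-box1 fell just short on replicate 2, at 1.94-fold. The background was 0.522% of named genes negative past 2-fold on both arrays (0.504% of all rows) and 0.703% in either direction (0.691% of all rows). At 1.5-fold on both arrays the count was 3 of 7, all negative, and the background was 2.56% of named genes in either direction. The genes were chosen with these ratios in view, so nothing is read from the counts against the background.

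In the order of their means the 7 genes ran HIS1-3, 3xHMG-box1, Haspin, AUR2, AUR1, 3xHMG-box2 and PRL. Over the means HIS1-3 lay 3.53 below 3xHMG-box1, the next gene. The gap was 4.14 on replicate 1 and 2.93 on replicate 2, and it was not tested. With each array shifted to a median of 0, the means of HIS1-3, 3xHMG-box1 and Haspin were -4.76, -1.23 and -1.21. The means of AUR2, AUR1 and 3xHMG-box2 lay closer together than the SD of AUR2, and their order changed between arrays. On replicate 2 AUR2 lay below 3xHMG-box1, while on replicate 1 it was the highest of the 7.

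Related genes were taken from 7 lists of loci with 203 genes, of which 35 had a named probe. By limma with Benjamini-Hochberg adjustment over all 21425 rows, 0 of the 35 had an adjusted p under 0.05, against a background of 0% (0 rows called). Without values of exactly 0 limma called 55 of 20763 rows (46 negative, 9 positive), and 0 of these were listed genes. Robust limma and the statistic without moderation also called 0 of the 35. At an unadjusted p under 0.05 limma counted 2 of the 35, 1 positive and 1 negative, and both other forms counted 2 as well. That is 5.71% of the listed genes, beside 6.54% of all named genes at that p. No listed gene was 2-fold from equal with one sign on both arrays. The median of their means was 0.01, beside 0.08 over all named genes.

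Most histone genes other than HIS1-3 lay near equal, and none was past 2-fold on both arrays. Of 47 listed genes 18 had a named probe, 9 were positive and 2 negative on both arrays, 6 had opposite signs, and 1 (AT1G13370, listed as HTR6) was exactly 0 on both. Over all named genes the shares were 41.9% positive, 17.0% negative and 38.4% opposite, and those of the histones were near them. The median of their means was 0.05, or -0.04 after centring, so it has no settled sign. The furthest was the histone H2B gene HTB1, with 1.80 on replicate 1 and 0.05 on replicate 2. AT1G07820, listed as a histone H4 gene, had 0.72 and 0.87, and it was the only listed gene past 1.5-fold on both arrays. AT4G40040, listed for histone H3, had 0.50 and 0.21, and AT5G65360, also listed for histone H3, had -0.44 and -0.21.

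Other HMG-box genes had 3 of 12 named, all from the group that joins the HMG box to an ARID domain. AT3G13350 had ratios of -0.98 and -0.23, AT1G04880 had -0.98 and -0.11, and AT1G76110 had 0.31 and -0.08. Of these, 2 were negative on both arrays, as 17.0% of all named genes were, and their ratios on replicate 2 were small. None was past 1.5-fold on both arrays. The median of their means was -0.54.

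The genes of mitosis and replication with a named probe lay near equal, and few of the listed genes had one. Other listed genes may be among the 12568 probes that are unnamed here. Of 46 listed mitosis genes 5 were named, and the median of their means was -0.0051. Their means ran from -0.16 to 0.01, so none was as far from equal as Haspin. Haspin was chosen with its ratio known, and only 1.68% of all named genes had a larger absolute mean, so nothing is read from that. BUB3.1, a spindle checkpoint gene, had ratios of -0.09 and -0.23. The condensin gene ATSMC2 had 0.11 and -0.35. AT4G39630, listed as the Borealin gene of the Aurora kinase complex, had 0.27 and -0.24, and AT3G54630, listed as the kinetochore gene NDC80, had 0.04 and -0.02. In 4 of the 5 genes replicate 1 was positive and replicate 2 negative, a pair of signs that 26.2% of all named genes had. The medians of the arrays, 0.16 and 0.02, differ in that direction, and their part in these signs was not tested. Among 34 listed replication genes only ICU2, for a DNA polymerase subunit, was named besides PRL, at 0.09 and 0.02, and the other MCM subunits had no named probe.

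**Figure D4:**
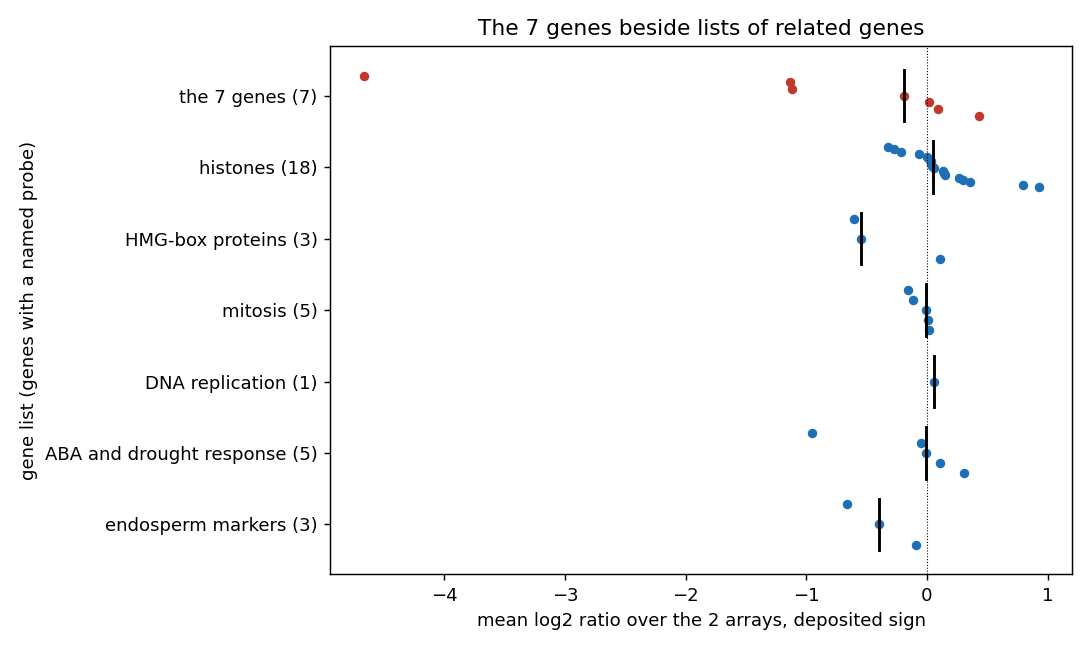
Mean log2 ratio over the 2 arrays (deposited sign) of the 7 genes in red and of the genes with a named probe in each list in blue, 1 point per gene, with a black bar at the median and the number of genes in brackets. HIS1-3 at -4.67 lies beyond every listed gene, whose means run from -0.95 to 0.93. Only 0.034% of all named genes had a larger absolute mean than HIS1-3.

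None of the listed genes of the abscisic acid and drought response with a named probe came near the ratio of HIS1-3 on both arrays. HIS1-3 was chosen with its ratio known, and only 0.034% of all named genes had a larger absolute mean. Nothing about that response is therefore read from the gap. Of 40 listed genes 5 were named. The median of their means, -0.01, was the mean of KIN1, a cold-induced gene whose ratios of 0.99 on replicate 1 and -1.02 on replicate 2 cancel. KIN1 was on the list, and it was added to the genes described after its values were seen. COR47, a dehydrin gene, was -2.15 on replicate 1 and 0.25 on replicate 2. COR15A, for a chloroplast protein of cold tolerance, had ratios of 0.44 and 0.17, and COR15B had -0.05 and 0.26. KIN2 had -0.06 and -0.04. In sign, 1 of the 5 was negative on both arrays, and it was near 0. The best known abscisic acid markers on the list, RAB18, RD29A and RD29B, had no named probe.

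Tissue markers could be followed only in part. Of 11 endosperm markers 3 were named, with a median of means of -0.39, and 2 were negative on both arrays. AGL62, a MADS-box gene of the young endosperm, had ratios of -0.41 and -0.91, AGL38 had -0.79 and 0.0011, and AGL28 had -0.08 and -0.09. Of the 2 negative on both arrays AGL28 was near 0, and 17.0% of all named genes were negative on both. The signs of AGL38 were opposite. The part of endosperm in the ratios of HIS1-3, Haspin and 3xHMG-box1 was not tested. Of 13 embryo markers of seed filling 0 were named.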

How the data were processed

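The values deposited by the authors are log ratios of both channels, read here as log10, for 21500 probes on 2 arrays. The software was Agilent Feature Extraction 7.1.1, per the submitters' processing notes. How background and dye effects were corrected is not given in the sources used here. Channel intensities were not used, so whether a probe exceeded background in both channels is not known. Probes were named from the 2007 platform annotation, with symbols updated by gene ID through a TAIR10.1 gene table used for names and gene order only (8893 probes with 1 name, of which 8875 matched, 39 with several and 12568 unnamed). Values were multiplied to log2 without centring, and probes of a gene were averaged (72 genes), which gave 21425 rows. With limma 3.58.1 in R 4.3.3, all rows were tested against 0 (intercept only, 1 residual degree of freedom, eBayes, two-sided, Benjamini-Hochberg). The code was tested on simulated data. The number of arrays limits the precision.

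The 7 genes and the lists were chosen with earlier results of these data known. Names of listed loci that the gene table does not name come from general knowledge. Named list genes were up to 4 per list with the largest absolute mean. The genes most like a member were the nearest in distance, 3 for HIS1-3 and 1 for other members past 2-fold on an array. KIN1, RAB18, RD29A, RD29B, AT1G13370 and the linker histone pair were added to the genes described after values were seen. Alternatives were centring, scaling, single probes, base 2, other fold limits, leaving out an array or exact zeros, robust and unmoderated fits, and a running median over 201 rows of probe order.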

Additional observations from a re-analysis of the deposited data

How the results depend on the processing

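Each ratio already compares both genotypes on 1 array, so the test against 0 uses that pairing and no further block was fitted. The pairs are of channels on an array, and the labels do not say that they are of separate plants. The spread that the test uses may therefore be technical, and the mean it tests holds genotype and dye together. Centring, scaling and the running median along probe order (chosen after seeing the data) kept the sign of HIS1-3, 3xHMG-box1, Haspin, AUR2 and PRL. The mean of AUR1 became negative under all 3, and that of 3xHMG-box2 under centring and the running median but not under scaling. Haspin moved by more than its SD of 0.02, to between -1.23 and -1.20. Leaving out an array turned the sign of AUR2, from 0.71 on replicate 1 alone to -1.09 on replicate 2 alone, and also of AUR1 and 3xHMG-box2. The difference of HIS1-3 from the median of the other genes was -4.58, between -4.62 and -4.40 under these 3 settings, -5.53 without replicate 2 and -3.32 without replicate 1. With values read as log2 it was -1.38.

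The limma count of 0 rows became 55 without values of exactly 0, and held with centring, scaling, single probes, robust and unmoderated fits. The 148 rows past 2-fold with one sign became 14 read as log2, 544 at 1.5-fold and 46 at 3-fold, and single arrays gave 419 and 1352. Of listed genes 0 were past 2-fold, 1 at 1.5-fold, and 1 and 2 on single arrays, where no agreement of sign is needed. The causes were not tested.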
